A study of Drosophila melanogaster with 48 samples.

Results

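The yolk protein genes Yp1, Yp2 and Yp3 and the gene fit (female-specific independent of transformer) had more RNA in female than in male brains of the fruit fly. They were taken by gene symbol, 4 of the 17490 genes in the count table, and they had been chosen by their higher levels in females than in males in these libraries. The difference between the sexes is therefore given as levels with no test, and the tests below concern age and genotype. RNA was sequenced from brains of Drosophila melanogaster in a study that models mucopolysaccharidosis IIIB, a lysosomal storage disease caused by loss of the enzyme NAGLU. There were 48 libraries, each made from 20 brains, in 16 groups of 3 replicates. The genotypes were a NAGLU knockout (KO), NAGLU W422X, NAGLU Y160C and WG2, each in females and males at week 0 and at week 3. WG2 served as the control because its labels name no NAGLU change, but they do not state that it is the parental line. The labels also do not say how the alleles were made, how many lines stand behind each genotype, or whether replicates came from separate crosses.

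Yolk proteins are secreted by the fat body and by the follicle cells of the ovary, travel through the haemolymph, and are taken up by growing oocytes. Their transcription in females follows the sex determination cascade, which ends in the female form of the doublesex protein, and it responds to ecdysone and juvenile hormone. The product of fit is a secreted peptide of the fat tissue in the head, known for curbing the intake of protein food through the insulin-producing cells of the brain. Neurons and glia are not known as main sources of either kind of product. In RNA from whole dissected tissue, fewer cells of a type and less RNA per cell cannot be told apart.

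Total counts per library ranged from 8690199 to 55801160, with a median of 19159445.5. No library went against its sex label: lncRNA:roX1, a dosage compensation RNA of males, lay at 13.4 to 52.2 CPM (counts scaled to a common library size) in females and 3655 to 6279 CPM in males. Naglu itself lay at 1.4 to 3.71 CPM in KO, 4.55 to 9.13 CPM in W422X, 17.5 to 25.7 CPM in Y160C and 17.9 to 29.5 CPM in WG2. KO female week 3 replicates 1 and 3 stood apart. Their summed level of 7 haemocyte (blood cell) markers was 5851 and 7601 CPM, against 108 to 490 CPM in every other female library. Nearly all of it was 1 gene, Hml (Hemolectin, a clotting protein), at 5772 and 7535 CPM, against 57.4 to 307 CPM in the other female libraries, while the other 6 markers summed to 78.5 and 66.0 CPM, against 50.3 to 183 CPM. Contrasts that hold KO females at week 3 are given with and without these libraries.

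Yp1 and Yp2 are neighbours on the X chromosome that are read in opposite directions. In the BDGP6.54 annotation Yp2 (FBgn0005391) spans X:10050951-10052636 on the minus strand and Yp1 (FBgn0004045) spans X:10053811-10055498 on the plus strand. Their starts are 1174 bases apart, with 0 annotated genes between them. Each has 2 exons, and they encode proteins of 442 and 439 residues. Yp3 (FBgn0004047) lies 3704047 bases further along the same chromosome, at X:13759546-13761547 on the plus strand, and has 3 exons and a protein of 420 residues. The gene fit (FBgn0038914) is a single exon at 3R:21883924-21884454 on the minus strand and encodes 121 residues. Yp1 overlaps asRNA:CR45601, and fit overlaps CG31465 and asRNA:CR45046. Of these, asRNA:CR45601 and CG31465 had 0 reads in all 48 libraries, and asRNA:CR45046 had 26 reads over the 24 female and 13 over the 24 male libraries.

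In females the yolk protein genes were among the more abundant transcripts of the dissected brains. Levels are CPM on library sizes scaled by the TMM method (trimmed mean of M values). Yp1 had a lowest level of 119.5, a median of 354 and a highest of 853 CPM over the 24 female libraries. Yp2 ran from 173 to 1460 CPM with a median of 469.6, and Yp3 from 93.4 to 1544 CPM with a median of 414. The spread between lowest and highest was 7.13-fold for Yp1, 8.43-fold for Yp2 and 16.5-fold for Yp3. Divided by gene length, the mean level in females was 374 ± 212 CPM per kilobase (SD, n = 24) for Yp2, 307 ± 189 for Yp3 and 229 ± 110 for Yp1. Among all genes of a library on this scale, Yp2 ranked between 21 and 509 in females, Yp3 between 22 and 1414 and Yp1 between 49 and 812. The 3 genes together took a median of 0.145% of all counts in females. That share ran from 0.0339% (exact 95% binomial interval 0.0332% to 0.0346%) to 0.349% (0.347% to 0.352%). Such intervals cover counting error only.

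In males the same genes were far lower, and ranked between 4898 and 13479 among all genes of a library per kilobase. Yp1 lay at 0.809 to 12.2 CPM with a median of 2.42, Yp2 at 1.26 to 20.5 CPM with a median of 3.17, and Yp3 at 1.59 to 17.9 CPM with a median of 6.32, each over 24 libraries. The lowest female library exceeded the highest male library for all 3 genes. Per kilobase the order in males was Yp3 at 3.77, Yp2 at 3.16 and Yp1 at 2.1 CPM, where Yp2 stood above Yp3 in females. The 3 genes took 0.000438% (0.000355% to 0.000535%) to 0.00471% (0.00446% to 0.00497%) of all counts in a male library, with a median of 0.00111%.

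The transcript fit was scarce in both sexes. In females it lay between 0.205 and 7.08 CPM with a median of 1.67, which rests on 3 to 123 reads a library. In males it lay between 0 and 0.337 CPM, from 50 reads in all 24 libraries, and 6 libraries were at 0. A count of 0 in those 6 allows up to 0.145 to 0.209 CPM, so the lowest female libraries are not separated from them by depth. Divided by length, fit averaged 3.54 ± 2.77 CPM per kilobase (SD, n = 24) in females, and its rank among all genes ran from 4572 to 12113. No fold between the sexes is given for fit, because the male values are at or near 0.

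**Figure D1:**
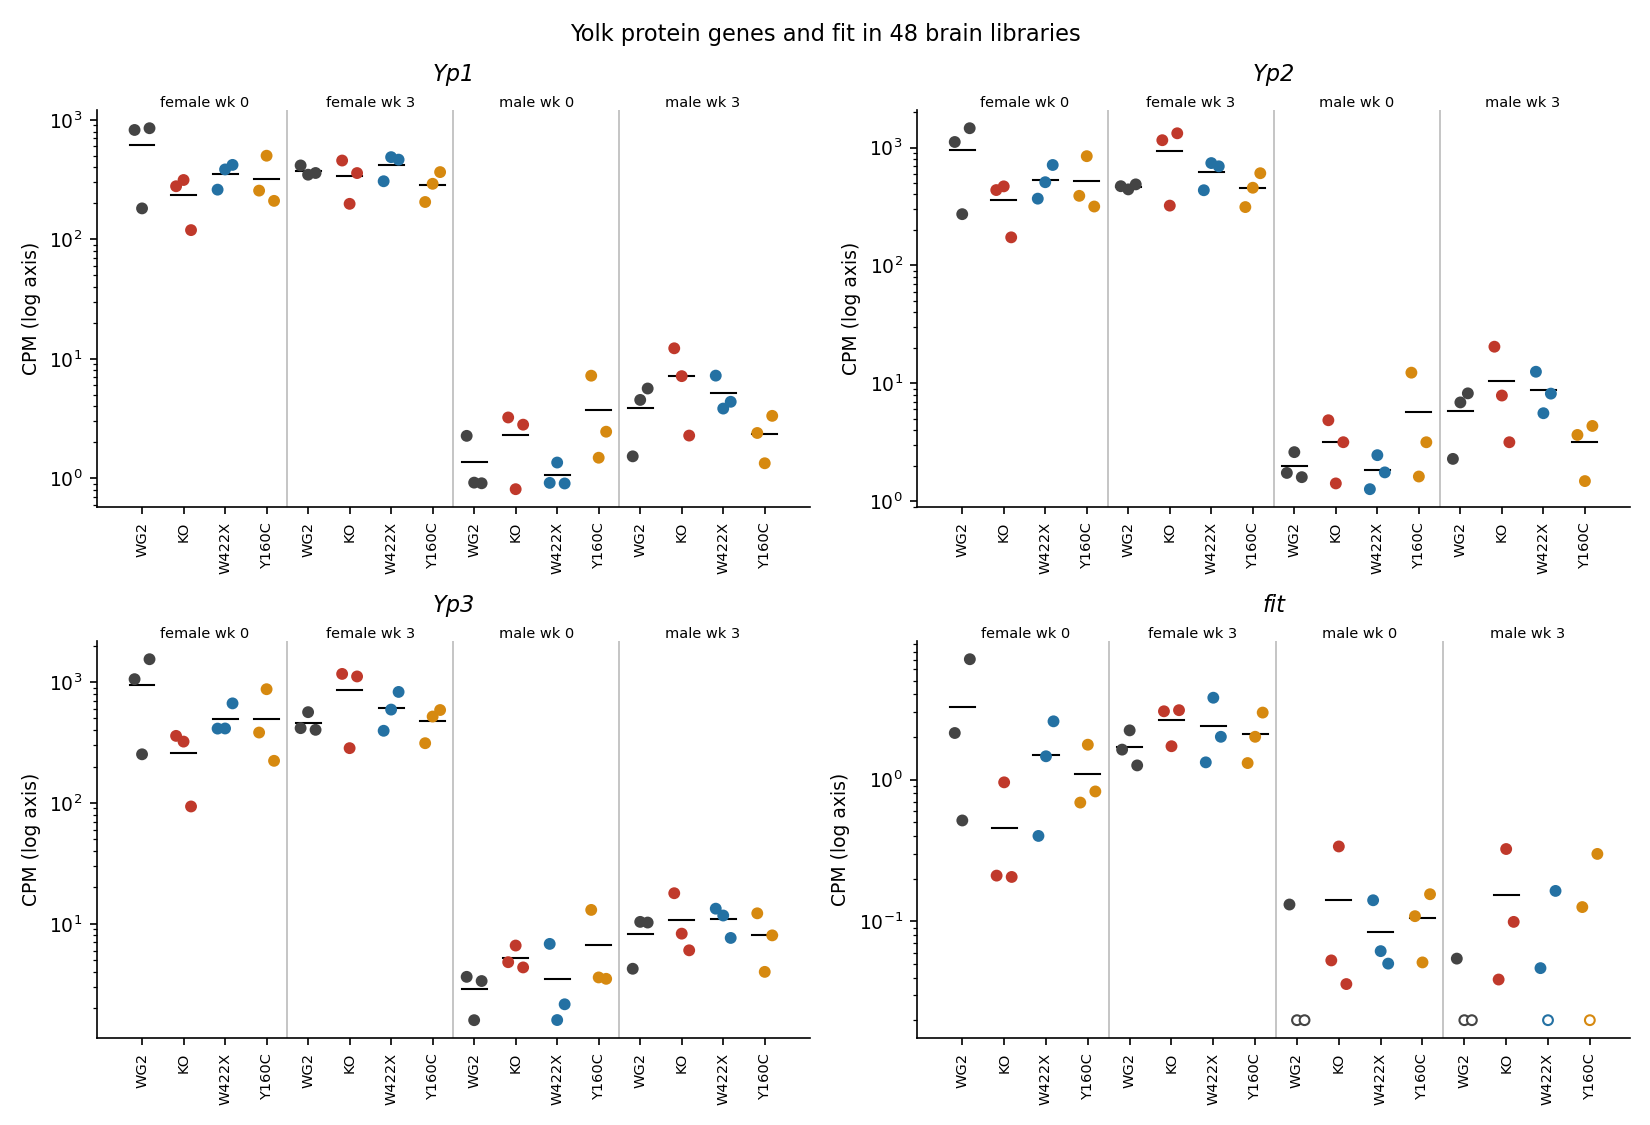
Level of Yp1, Yp2, Yp3 and fit in CPM, on a log axis, in each of the 48 libraries, by genotype, sex and week. Points are libraries, bars are the means of 3 replicates where no library is at 0, and open circles at the foot mark libraries listed at 0. The female and male libraries do not overlap for the yolk protein genes, and replicates of a group lie far apart.

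The sex difference of the yolk protein genes was present in each of the 8 pairs of female and male groups. As a description, the fitted log2 difference was widest in WG2 at week 0, at 8.75 for Yp1, 8.91 for Yp2 and 8.36 for Yp3. In WG2 at week 3 it was 6.60, 6.34 and 5.80. It was narrowest for Yp1 in KO at week 3, at 5.48, where Yp2 and Yp3 stood at 6.42 and 6.28. In KO at week 0 it was 6.65, 6.81 and 5.63, the last being the narrowest for Yp3. In W422X it went from 8.39, 8.17 and 7.18 at week 0 to 6.34, 6.14 and 5.79 at week 3. In Y160C it was 6.55, 6.60 and 6.26 at week 0 and 6.92, 7.16 and 5.86 at week 3.

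Replicates of one group differed widely in females. Yp1 in WG2 at week 0 read 824, 182 and 853 CPM in replicates 1, 2 and 3. In the same libraries Yp3 read 1056, 252 and 1544 CPM, and fit read 2.13, 0.514 and 7.08 CPM. Replicate 2 was low and replicate 3 high for all 3 genes. In KO at week 0 Yp1 read 279, 314 and 119.5 CPM, so that the third replicate was the lowest female library of the study. In Y160C at week 0 it read 256, 502 and 210.1 CPM, with the second replicate high. The W422X libraries at week 0, at 261, 385 and 420.4 CPM, and at week 3, at 307, 488 and 465 CPM, overlapped each other. WG2 at week 3 had the tightest values, at 416, 348 and 359.6 CPM for Yp1 and 470.4, 442 and 487 CPM for Yp2. The SD within female groups on the log2 scale was 0.660 for Yp1, 0.774 for Yp2 and 0.875 for Yp3. Among the 3139 genes above 50 CPM the median SD was 0.185, and 97.6%, 98.1% and 98.3% of them had a smaller SD than Yp1, Yp2 and Yp3. For fit the SD was 0.963, and the median over all 15807 tested genes was 0.346.

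Because of this spread the order of the female groups was loose. Yp1 was highest in WG2 at week 0 (620 ± 380 CPM, SD, n = 3) and lowest in KO at week 0 (237 ± 104). Between them, in falling order, came W422X at week 3 (420 ± 98.8), WG2 at week 3 (375 ± 36.4), W422X at week 0 (355 ± 83.8), KO at week 3 (338 ± 131), Y160C at week 0 (323 ± 157) and Y160C at week 3 (288 ± 80.3). No neighbours in this order differed by more than the larger of their SDs. For Yp2 the order began with WG2 at week 0 (949 ± 611) and KO at week 3 (933 ± 536) and ended with KO at week 0 (359 ± 162), and again no neighbours differed beyond their SD. For Yp3 it began with WG2 at week 0 (951 ± 652) and KO at week 3 (854 ± 495). The last step, from WG2 at week 3 (460.2 ± 89.4) to KO at week 0 (258 ± 144), was the single one that exceeded the larger SD. For fit the single such step was also the last, from Y160C at week 0 (1.09 ± 0.585) to KO at week 0 (0.457 ± 0.432), below WG2 at week 0 at the top (3.24 ± 3.42). All 4 genes thus had their highest mean in WG2 at week 0 and their lowest in KO at week 0. In males 0 steps exceeded the SD for any of the 4 genes.

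In males the yolk protein genes rose with age, averaged over the 4 genotypes. Yp1 at week 0 ran from 0.809 to 7.22 CPM with a median of 1.42, and at week 3 from 1.33 to 12.2 CPM with a median of 4.10. Yp2 went from a median of 2.11 (1.26 to 12.3) to 6.23 (1.48 to 20.5) CPM. Yp3 went from 3.62 (1.59 to 13) to 9.26 (4.0 to 17.9) CPM. The week 0 and week 3 libraries overlapped for each gene. These levels rest on few reads: 12 to 133 a library at week 0 and 23 to 316 at week 3 for Yp1. For Yp2 they were 18 to 227 and 30 to 528 reads, and for Yp3 26 to 240 and 61 to 462. Averaged over genotypes, Yp1 rose by 1.22 ± 0.34 on the log2 scale (± SE, adjusted p = 0.00969, edgeR), a 2.32-fold change. Yp2 rose by 1.21 ± 0.37 (adjusted p = 0.0194, 2.31-fold) and Yp3 by 1.15 ± 0.35 (adjusted p = 0.0173, 2.22-fold). In this contrast 11.5% of the tested genes were called higher, and 18.6% were called in either direction. The direction held in 3 of the 4 genotypes for Yp1 and Yp2 and in all 4 for Yp3, and no single genotype passed the threshold.

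The male rise was not even. In W422X, Yp1 read 0.914, 1.35 and 0.903 CPM at week 0 and 7.23, 3.83 and 4.36 CPM at week 3, without overlap. The fitted change was 2.29 (adjusted p = 0.0671), with 2.26 (0.0934) for Yp2 and 1.67 (0.224) for Yp3, where 5.19% of genes were called. In KO, Yp1 read 3.22, 0.809 and 2.81 CPM and then 12.2, 7.15 and 2.27 CPM. The older KO libraries overlapped the younger ones through replicate 3, and the changes were 1.68 for Yp1 (adjusted p = 0.226), 1.77 for Yp2 (0.283) and 1.08 for Yp3 (0.576), with 1.49% of genes called. In WG2, Yp1 read 2.26, 0.918 and 0.906 CPM and then 1.52, 4.52 and 5.64 CPM, with changes of 1.43, 1.54 and 1.51 for Yp1, Yp2 and Yp3 (adjusted p = 0.351, 0.360 and 0.341, background 2.37%). In Y160C, Yp1 read 7.22, 1.48 and 2.45 CPM and then 2.39, 1.33 and 3.33 CPM. Its replicate 1 at week 0 was the highest young male library for Yp1, Yp2 and Yp3, and the changes were -0.53, -0.73 and 0.34 (adjusted p = 1.0 for each, background 1.76%).

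The call in males depended on single libraries for Yp2 and Yp3. Yp1 kept it without each of the 24 male libraries in turn, at 0.92 to 1.42 and adjusted p between 0.00211 and 0.0476. The call for Yp2 was lost without KO male week 3 replicate 1 (0.84, adjusted p = 0.103), W422X male week 3 replicate 1 (0.95, 0.0685), Y160C male week 3 replicate 1 (1.02, 0.0515), and WG2 male week 3 replicate 2 (1.01, 0.0538) or replicate 3 (0.95, 0.0706). The call for Yp3 was lost without the same 5 libraries, at 0.85 (adjusted p = 0.0828), 0.94 (0.0570), 0.88 (0.0713), 0.93 (0.0575) and 0.93 (0.0578). The summed level of the 23 fat body genes ran from 2081 to 2824 CPM in young and from 2057 to 3372 CPM in older males, with medians of 2515 and 3023. The haemocyte sum went from a median of 87.3 to 119 CPM. The part of either in the rise was not tested beyond a fit with the fat body level as a covariate. In that fit all 3 genes were still called, as were 7657 of 15807 genes, against 2943 without the covariate.

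In females no change with age of the 4 genes passed the test, averaged over genotypes. Yp1 had a median of 296 CPM (119.5 to 853) at week 0 and 359 CPM (198 to 488) at week 3. Yp2 had medians of 453 (173 to 1460) and 479 (313 to 1322) CPM, and Yp3 of 397 (93.4 to 1544) and 541 (284 to 1167) CPM. Both ages overlapped for all of them, and the young libraries had both the lowest and the highest values. The log2 change was -0.03 for Yp1 (95% interval -0.56 to 0.49, adjusted p = 0.915), 0.10 for Yp2 (-0.51 to 0.72, 0.781) and 0.23 for Yp3 (-0.39 to 0.84, 0.525). For fit it was 0.79 (-0.14 to 1.73, adjusted p = 0.132), from a median of 0.890 CPM (0.205 to 7.08) to 2.01 CPM (1.26 to 3.78). None was called in a contrast where 62.4% of all tested genes were. Without KO female week 3 replicates 1 and 3 the changes were -0.23, -0.28, -0.17 and 0.64 for Yp1, Yp2, Yp3 and fit. Without WG2 female week 0 replicate 3, which had the highest fit level of all, fit changed by 1.2 (adjusted p = 0.0338), and without KO female week 0 replicate 2 by 1.15 (adjusted p = 0.0381).

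The change with age was lower in females than in males for Yp1. The difference of the changes was -1.25 ± 0.43 on the log2 scale (adjusted p = 0.0415), where 7.95% of genes were called lower and 23.4% in either direction. For Yp2 it was -1.11 ± 0.48 (adjusted p = 0.0761) and for Yp3 -0.92 ± 0.46 (0.113). Leaving out 1 library at a time it was lost in 35 of 48 cases, with values of -1.46 to -0.99 and adjusted p between 0.0314 and 0.119. It was also lost with RLE size factors (-1.16, adjusted p = 0.0573), with total counts (-1.13, 0.0648), and without KO female week 3 replicates 1 and 3 (-1.42, 0.118, with -1.47 for Yp2 and -1.31 for Yp3). Yp2 passed the threshold without Y160C male week 0 replicate 1 (-1.4, adjusted p = 0.0333).

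**Figure D2:**
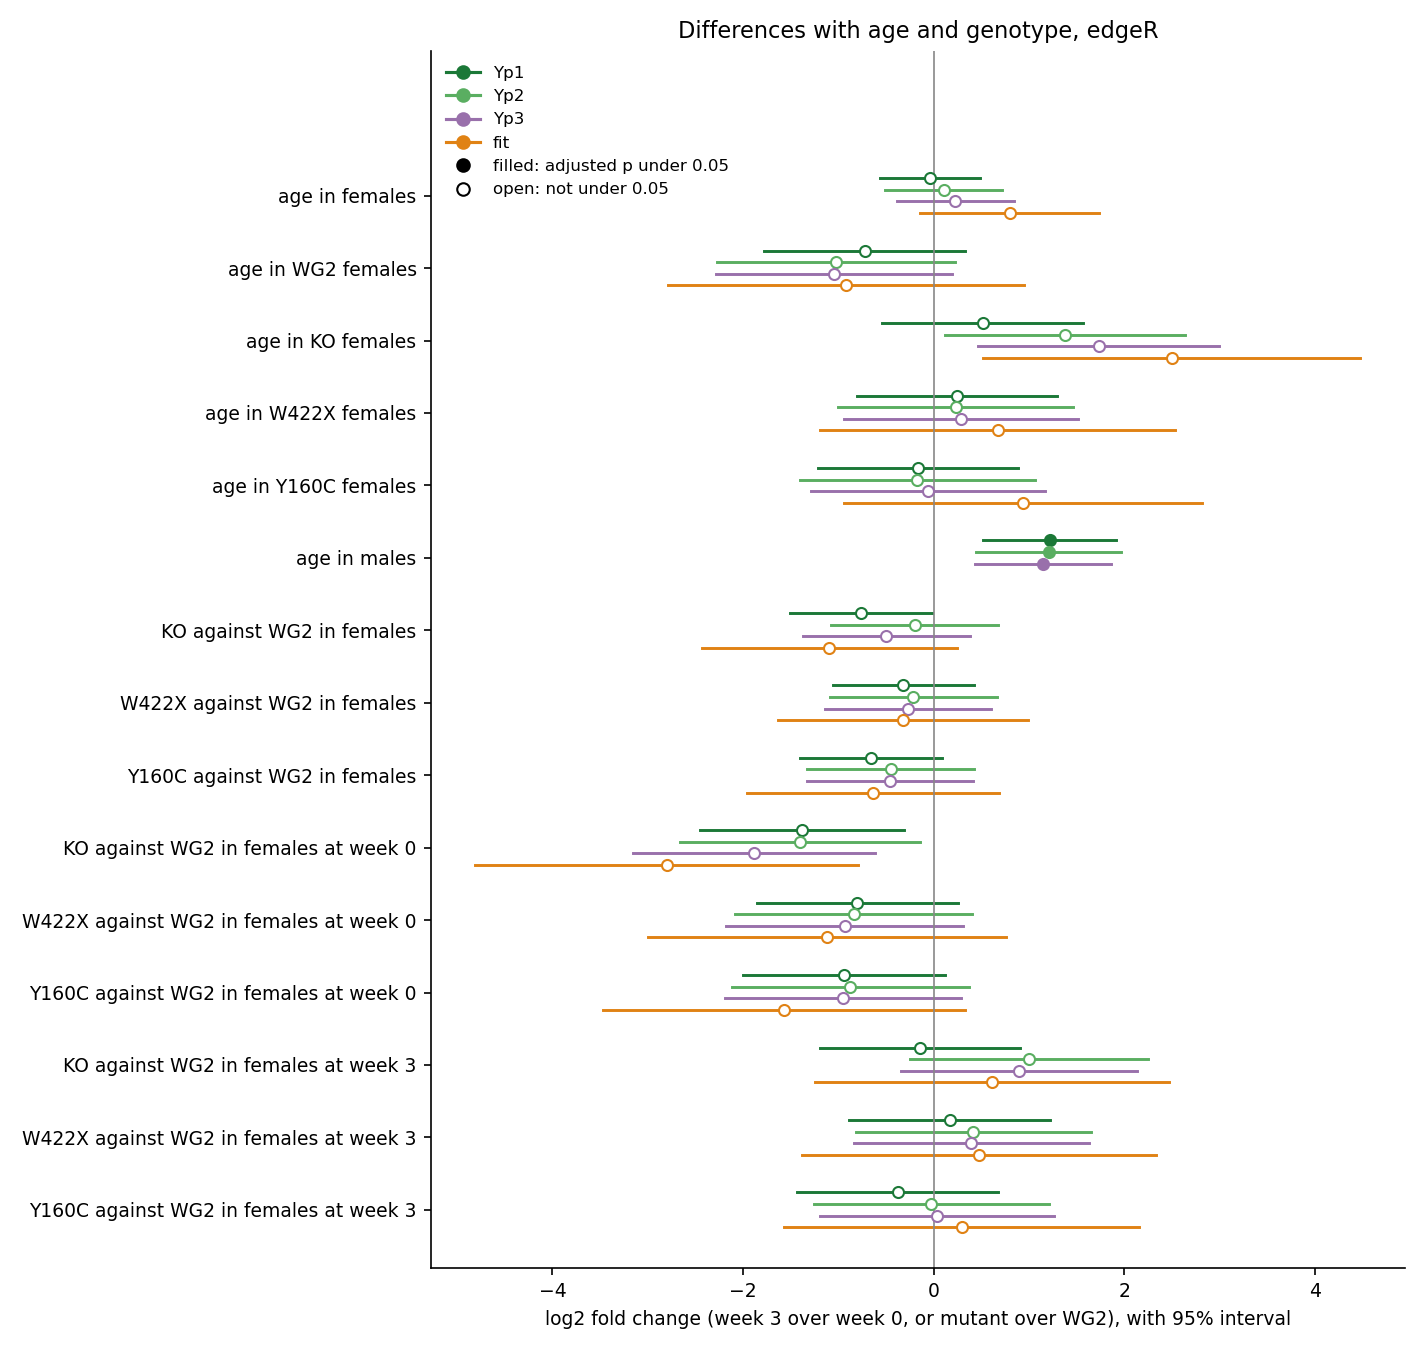
Log2 differences of Yp1, Yp2, Yp3 and fit for the contrasts of age and genotype, with 95% intervals, from one edgeR model of all 48 libraries. Filled points have an adjusted p under 0.05. Of the contrasts drawn, the change with age in males has such points, for Yp1, Yp2 and Yp3.

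Among the genotypes, the female changes with age lay on both sides of 0. In WG2 the older females had lower fitted levels, at -0.73 ± 0.52 for Yp1 (adjusted p = 0.317), -1.02 ± 0.61 for Yp2 (0.237), -1.05 ± 0.61 for Yp3 (0.227) and -0.92 ± 0.92 for fit (0.477), with 6.24% of genes called. In KO they had higher levels, at 0.51 ± 0.52 for Yp1 (adjusted p = 0.441), 1.38 ± 0.62 for Yp2 (0.118), 1.73 ± 0.62 for Yp3 (0.0521) and 2.49 ± 0.98 for fit (0.0733), with 16.7% of genes called. In W422X the 4 changes were 0.24, 0.23, 0.28 and 0.67 (adjusted p between 0.683 and 0.842, background 0.361%). In Y160C they were -0.16, -0.17, -0.06 and 0.94 (0.499 to 0.954, background 0.936%). No gene of the 4 was called in any of these contrasts.

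The KO values turn on the libraries that stood apart. Yp2 in KO females read 436, 469 and 173 CPM at week 0 and 1155, 322 and 1322 CPM at week 3. Yp3 read 358, 321 and 93.4 CPM and then 1167, 284 and 1112 CPM. At week 3 replicates 1 and 3 were high, and replicate 2 lay within the range of the young libraries. Yp1 read 457, 198 and 359 CPM at week 3, with the same replicates high but less far above the young libraries. For fit the values were 0.210, 0.956 and 0.205 CPM at week 0, from 3, 19 and 5 reads, and 3.04, 1.72 and 3.09 CPM at week 3, without overlap. Without replicates 1 and 3 the change with age in KO females was -0.21 for Yp1, -0.11 for Yp2, 0.19 for Yp3 and 1.94 for fit (adjusted p between 0.846 and 0.973), with replicate 2 as the single older library, assumed to vary like the other groups. Without replicate 2 the changes of Yp2 (1.81, adjusted p = 0.0364) and Yp3 (2.17, 0.0131) passed the threshold. Yp3 also passed with RLE size factors (1.88, adjusted p = 0.0362), with total counts (1.91, 0.0324) and with DESeq2 (1.88, 0.0150), and fit passed with DESeq2 (2.64, 0.0210) and without KO female week 0 replicate 2 (3.75, 0.0465). All these fits held KO female week 3 replicates 1 and 3. In this contrast DESeq2 called 2766 of 15807 genes and edgeR 2636.

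Against WG2, no difference of a mutant passed the test for any of the 4 genes. The 3 mutants share the WG2 libraries, so their values are not independent of each other. Averaged over both ages in females, KO stood at -0.77 ± 0.37 for Yp1 (adjusted p = 0.720), -0.20 ± 0.43 for Yp2 (0.888), -0.50 ± 0.43 for Yp3 (0.770) and -1.09 ± 0.66 for fit (0.740), where 0.772% of genes were called. Without KO female week 3 replicates 1 and 3 it stood at -1.13, -0.95, -1.27 and -1.36 (adjusted p = 1.0 for each). W422X stood at -0.32, -0.21, -0.27 and -0.32 (adjusted p of 0.986 or more), and Y160C at -0.66, -0.45, -0.46 and -0.64 (adjusted p = 1.0 for each). In each of these contrasts 0.177% of genes were called. All 12 fitted differences were below 0, and all 12 share the same WG2 groups, of which week 0 holds the highest libraries.

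The differences were larger at week 0. There KO differed from WG2 by -1.38 ± 0.53 for Yp1 (unadjusted p = 0.0128, edgeR), -1.4 ± 0.62 for Yp2 (unadjusted p = 0.0299, edgeR), -1.88 ± 0.62 for Yp3 (unadjusted p = 0.00488, edgeR) and -2.80 ± 0.99 for fit (unadjusted p = 0.00741, edgeR). The adjusted p was 1.0 for each, in a contrast that called 0.0822% of genes. The 3 WG2 and 3 KO libraries overlapped for all 4 genes with WG2 replicate 2 low. W422X at week 0 stood at -0.80, -0.84, -0.94 and -1.12 for Yp1, Yp2, Yp3 and fit (adjusted p = 0.980 for each, background 0.0506%), and Y160C at -0.94, -0.88, -0.95 and -1.57 (1.0, background 0.0696%). At week 3 KO stood at -0.15, 1.0, 0.89 and 0.61 (adjusted p between 0.755 and 0.964, background 1.33%). With replicate 2 as the single KO library of that age it stood at -0.90, -0.51, -0.67 and 0.04 (adjusted p = 1.0 for each), so that the values of Yp2 and Yp3 turned below 0. At the same age W422X stood at 0.17, 0.42, 0.39 and 0.47 (1.0, background 0.038%) and Y160C at -0.38, -0.03, 0.04 and 0.29 (1.0, background 0.0316%).

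The difference between KO and WG2 in the female change with age was tested directly. It was 1.24 for Yp1 (adjusted p = 1.0), 2.40 ± 0.87 for Yp2 (0.676), 2.78 ± 0.87 for Yp3 (0.341) and 3.42 ± 1.34 for fit (0.910), where 0.525% of genes were called. Without KO female week 3 replicates 1 and 3 it was 0.47, 0.87, 1.2 and 2.81 (adjusted p = 1.0 for each). For W422X it was 0.97, 1.26, 1.33 and 1.59, and for Y160C 0.56, 0.85, 0.99 and 1.86, with an adjusted p of 1.0 throughout. In the W422X and Y160C contrasts edgeR called 0 genes, with 393 and 174 genes at an unadjusted p under 0.05, and DESeq2 called 3 and 4. In males the differences of KO from WG2 were 0.85, 0.81 and 0.63 for Yp1, Yp2 and Yp3 (adjusted p = 0.622 for each, background 0.158%), those of W422X -0.01, 0.25 and 0.32 (1.0, background 0.202%) and those of Y160C 0.28, 0.29 and 0.56 (0.865, 0.872 and 0.758, background 0.158%). The difference between the sexes in the KO effect was -1.61 ± 0.60 for Yp1, -1.01 for Yp2 and -1.13 for Yp3 (adjusted p = 1.0 for each, background 0.152%). Without KO female week 3 replicates 1 and 3 it was -1.97, -1.75 and -1.88 (adjusted p = 1.0 for each). That for W422X was -0.31, -0.47 and -0.60, where edgeR called 0 genes (622 at an unadjusted p under 0.05) and DESeq2 3, and that for Y160C was -0.94, -0.74 and -1.02 (background 0.00633%). In males fit was too scarce to be compared.

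The proportions of the yolk protein genes to each other were steadier than their levels. Divided by length, Yp2 stood at 1.13 to 1.70 times Yp1 in 22 of the 24 female libraries, with a median over all of 1.5. The exceptions were KO female week 3 replicate 1 at 2.52 and replicate 3 at 3.67, while replicate 2 of that group stood at 1.62. Yp3 stood at 0.674 to 1.56 times Yp1 in the same 22 libraries and at 2.20 and 2.67 in those others. The ratio of Yp3 to Yp2 ran from 0.467 to 1.1 over all 24 female libraries and held KO female week 3 replicates 1 and 3 within it, at 0.875 and 0.728. So in these libraries Yp2 and Yp3 were high relative to Yp1 but not relative to each other. In males, on far fewer reads, the medians were 1.5 for Yp2 to Yp1 (0.765 to 2.83), 1.78 for Yp3 to Yp1 (0.999 to 7.04) and 1.25 for Yp3 to Yp2 (0.529 to 4.67). Over 12 exact permutation tests of these ratios by age and by mutant in females, two-sided and chosen after the ratios were seen, the lowest p was 0.05, for Yp2 to Yp1 in Y160C against WG2 (0.20 on the log2 scale, higher at both ages). For Yp2 to Yp1 in KO it was 0.06 (0.49, higher at 1 of the 2 ages), and 0.2375 (0.18) without KO female week 3 replicates 1 and 3. Every adjusted permutation p was 0.3 or more, and the smallest p these tests could give was 0.005 for a mutant and 1.25e-05 for age.

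**Figure D3:**
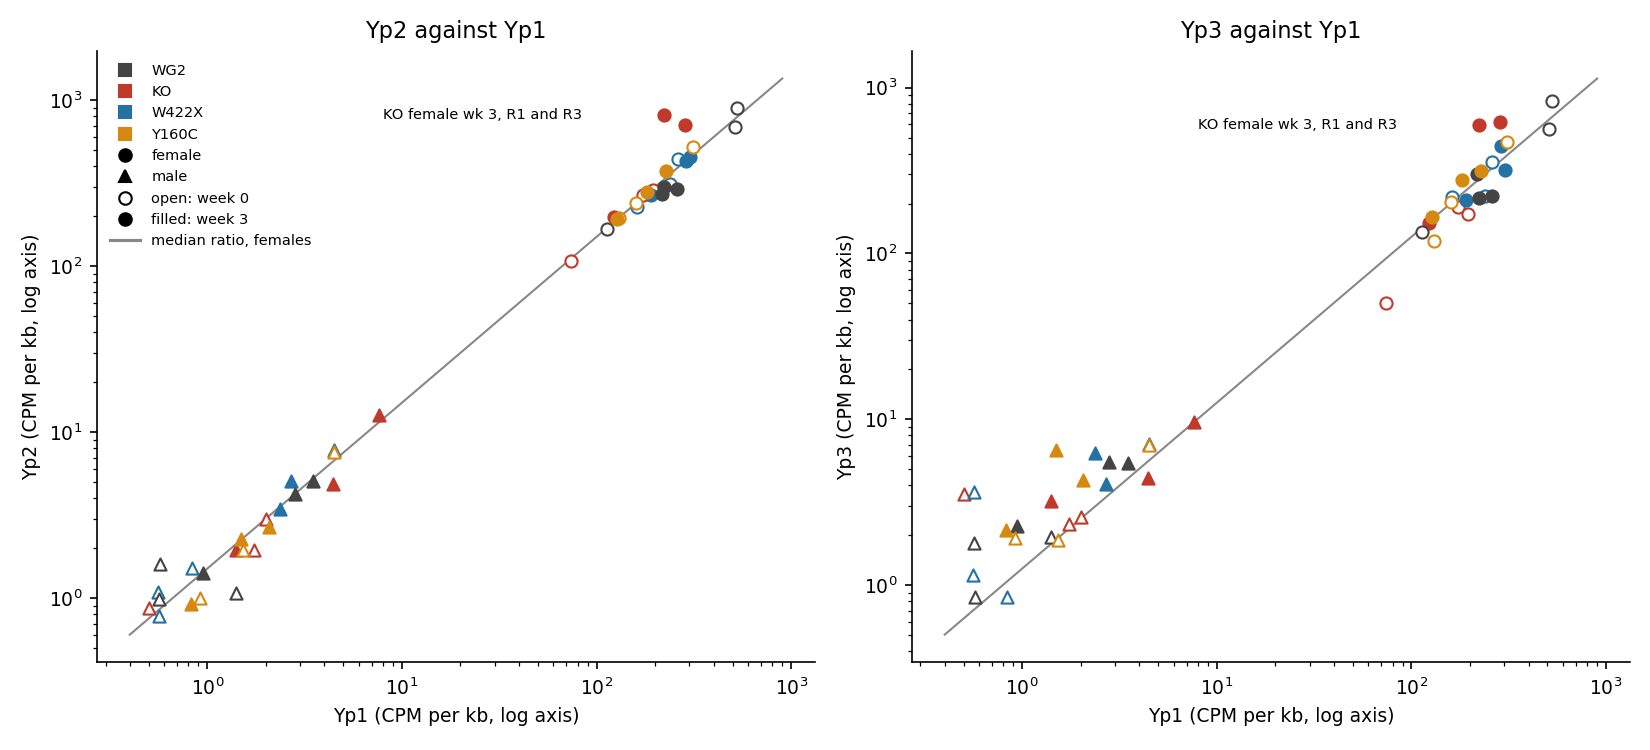
Level per kilobase of Yp2 (left) and Yp3 (right) against that of Yp1, in CPM per kilobase on log axes, for the 48 libraries. The grey line has the median ratio of the female libraries, 1.5 and 1.26. KO female week 3 replicates 1 and 3 lie above it in both panels.

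Within groups the genes moved together from library to library. Each female library's log2 level was taken as its deviation from its group mean, which removes genotype and age, and 8 relations were computed over the 24 libraries with 100000 permutations within groups. Yp1 and Yp2 had r = 0.958 and rho = 0.955 (permutation p adjusted over the 8 relations 0.0002 and 8e-05), and r = 0.940 without the 2 libraries farthest from the median. Yp2 and Yp3 had r = 0.963 and rho = 0.946 (adjusted permutation p 0.0002 and 0.00016), and r = 0.942 without 2 libraries. For Yp1 and Yp3 they were r = 0.931 and rho = 0.923 (adjusted permutation p 0.0002 and 0.00012), with r = 0.8995 without 2 libraries.

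The scarce transcript fit followed the yolk protein genes less closely. With Yp1 it had r = 0.799 and rho = 0.764 (adjusted permutation p 0.000304 and 0.000448), and r = 0.727 without 2 libraries. With Yp2 it had r = 0.788 and rho = 0.755 (adjusted permutation p 0.0002 and 0.00022, then r = 0.745), and with Yp3 r = 0.714 and rho = 0.683 (0.00344 and 0.0038, then r = 0.630). The raw permutation p ran from 1e-05 to 0.00285 over the 6 pairs of the 4 genes. The levels in a relation come from the same libraries and share their depth and scaling, and fit rests on as few as 3 reads.

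**Figure D4:**
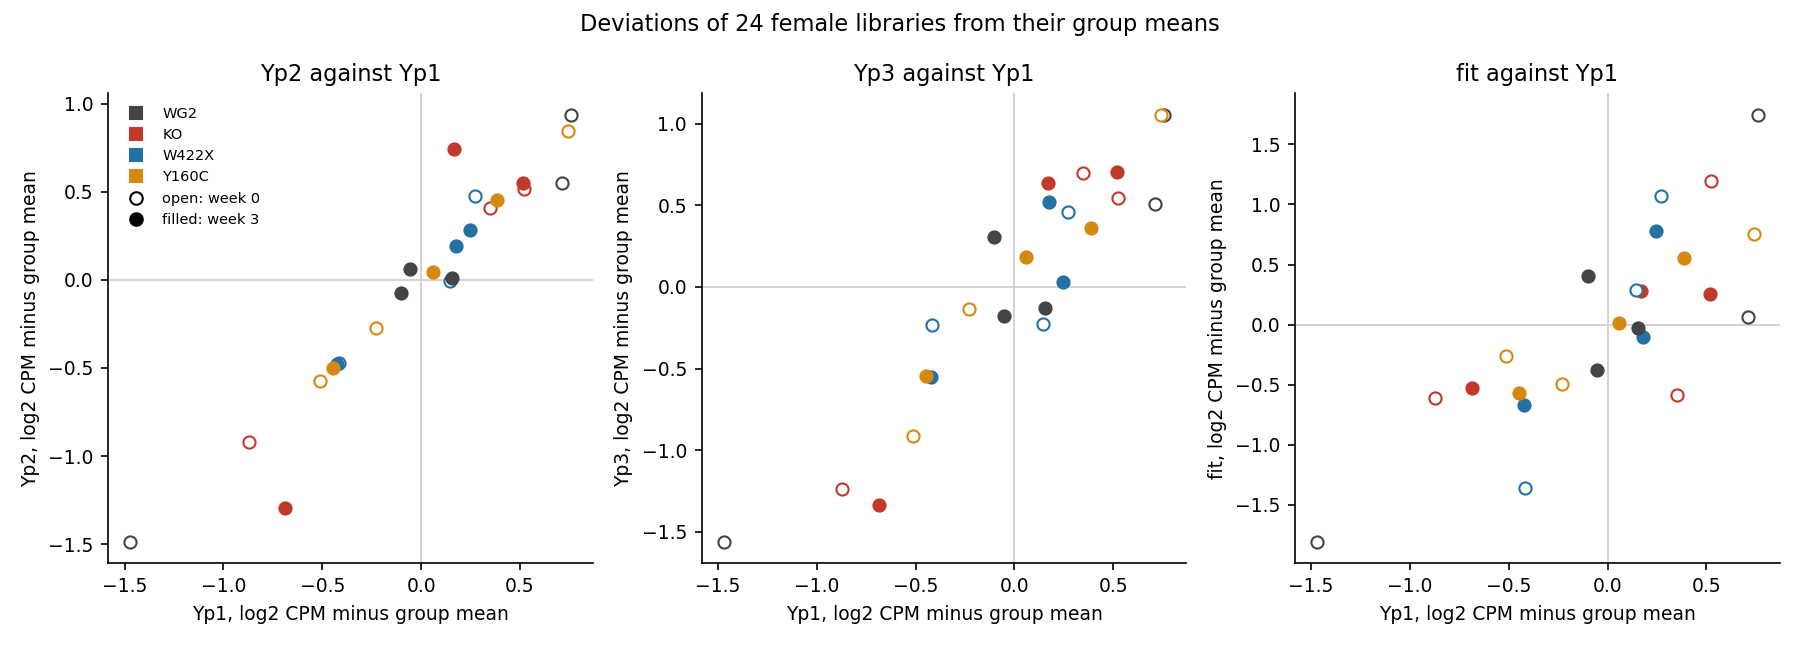
Deviation of each of the 24 female libraries from its group mean, in log2 CPM, for pairs of Yp1, Yp2, Yp3 and fit. Libraries high for one gene of a pair are high for the other, with r from 0.714 to 0.963.

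Markers of other tissues moved with some of these values. The list of fat body, lipid transport and storage genes summed to 2408 to 3648 CPM in young and 1972 to 3107 CPM in older females. In males it summed to 2081 to 2824 CPM in young and 2057 to 3372 CPM in older libraries. It holds apolpp, the lipid carrier of the haemolymph, at 596 to 1318 CPM in females and 516 to 1393 CPM in males, and lipid synthesis genes that are not restricted to the fat body. Lsp2, a storage protein that defines the fat body more closely, was at 0 in some libraries of each sex and age. Its median was 0.0760 CPM in young females and 0.448 CPM in older females. Its highest value, 36.1 CPM, was in an older KO female library, and no library of W422X, Y160C or WG2 exceeded 1.61 CPM. The 5 genes of sex-biased head fat summed to 4.79 to 13.6 CPM in females and 8.21 to 46.3 CPM in males. In WG2 at week 0 the fat body sum was 3254, 2538 and 3648 CPM in replicates 1, 2 and 3 and the haemocyte sum 369, 138 and 490 CPM, in the same order as Yp1. The ovary list of 21 genes lay at 21, 17.4 and 18.4 CPM there.

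The within-group deviation of the yolk protein genes was also set against the lists, a comparison chosen after the data were seen. With the fat body list it had r = 0.602 and rho = 0.557 (adjusted permutation p 0.00634 and 0.00963), and r = 0.45 without 2 libraries. Without KO female week 3 replicates 1 and 3 and W422X female week 3 replicate 1 it had r = 0.515 (adjusted permutation p 0.0777) and rho = 0.309 (0.2756). With the haemocyte list it had r = 0.697 and rho = 0.803 (adjusted permutation p 0.00363 and 0.00462), and r = 0.583 without 2 libraries. Without those same 3 libraries it had r = 0.796 and rho = 0.633 (adjusted permutation p 0.0270 and 0.0392). The ovary sum lay at 17.4 to 32.9 CPM in young females. In older females it reached 184 and 150.2 CPM in KO replicates 1 and 3, 39.4 CPM in replicate 2 and 119 CPM in W422X replicate 1. It ran from 20.0 to 81.8 CPM in older Y160C females and from 22.2 to 60.8 CPM in older WG2 females. In older males it ran from 16.9 to 65.3 CPM. Follicle cells of the ovary also make yolk proteins, and the part of carried-over ovary, fat body or haemocyte RNA in the levels of the 4 genes was not tested. W422X female week 3 replicate 1 had the lowest Yp1 level of its group and the highest TMM factor of the 48 libraries, 1.32. KO female week 3 replicates 1 and 3 had the higher Yp1 levels of theirs, at 457 and 359 CPM against 198 CPM in replicate 2.

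**Figure D5:**
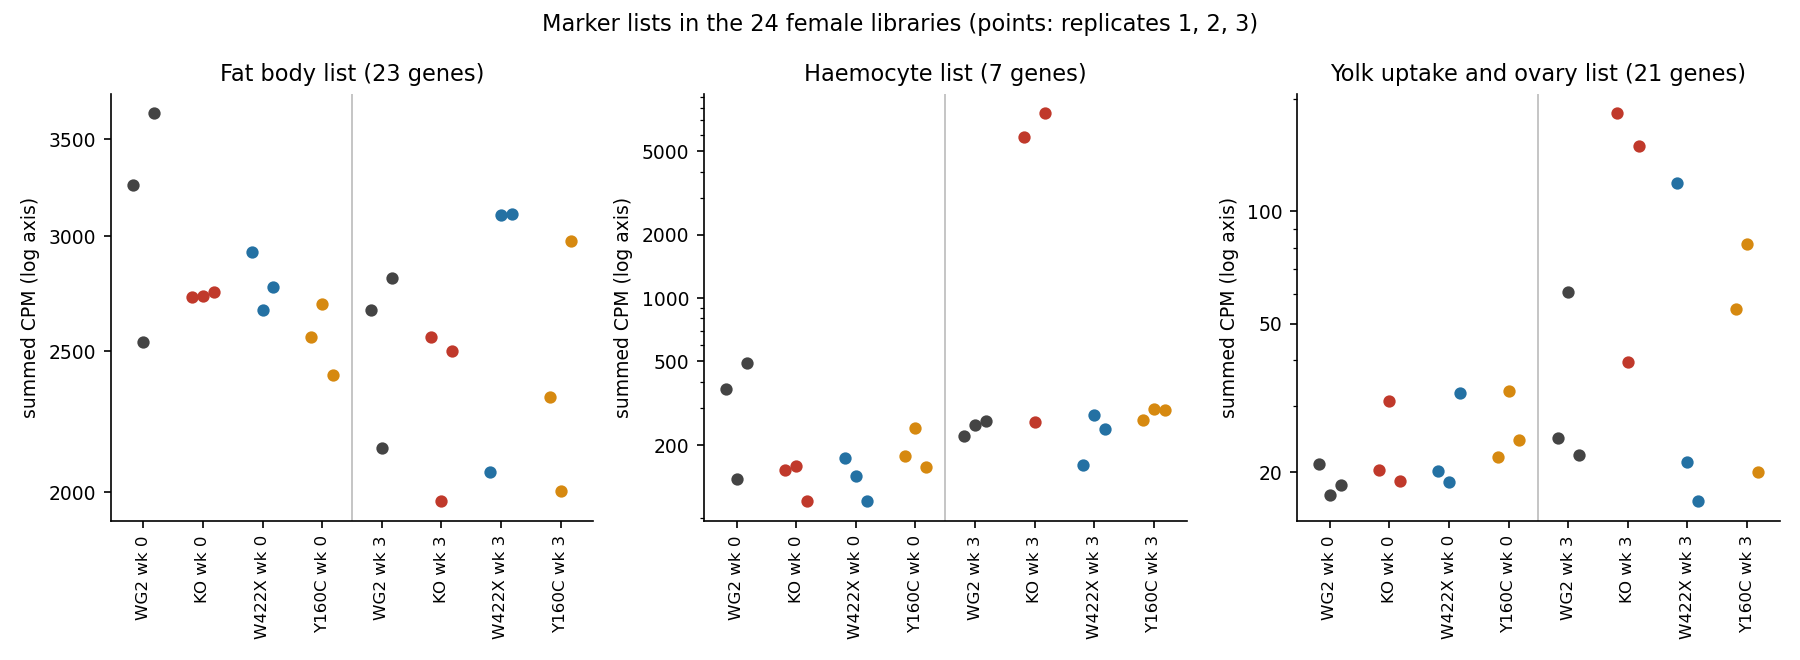
Summed CPM of the fat body, haemocyte and ovary gene lists in the 24 female libraries, on a log axis, by genotype and week. Points are libraries. KO female week 3 replicates 1 and 3 reach 5851 and 7601 CPM for the haemocyte list, against 108 to 490 CPM elsewhere, and Hml alone reaches 5772 and 7535 CPM of these.

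Genes that control or use yolk protein are given next by list, for the change with age over the 4 genotypes. Over all tested genes, 39.8% were called higher and 22.6% lower in older females, and 11.5% higher and 7.1% lower in older males. Of 16 genes in the control of yolk protein transcription, 3 rose and 7 fell in older females, with a median of -0.15 against 0.13 over all genes. Those that fell include fru (fruitless), a sex determination gene, from 615 ± 49.0 to 445 ± 50.8 CPM (SD, n = 12, log2 change -0.47, adjusted p = 6.64e-07). Whether fru acts on the yolk protein genes was not tested. The ecdysone receptor EcR (-0.31, adjusted p = 0.00021) and Aef1, a repressor that binds the yolk protein enhancer (-0.27, 0.000106), also fell. The split of this list depends on scaling: it was 3 and 6 with RLE factors, with a median of -0.06, and 7 and 1 with total counts, with a median of 0.09. In males 4 of the 16 rose and 0 fell, with a median of 0.05 against 0.00 over all genes. There the split was 4 and 2 with RLE factors and 7 and 0 with total counts. Genes that rose in males with TMM include dsx, which encodes doublesex, from 23.4 ± 3.14 to 29.8 ± 2.80 CPM (0.35, adjusted p = 0.00164), its partner ix (0.22, 0.0329) and the splicing regulator tra (0.22, 0.0246). Gene counts do not separate the female and male splice forms of dsx.

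Of 11 genes that make or clear juvenile hormone and ecdysone, 8 rose and 0 fell in older females, with a median of 1.53. Among them are spo (2.07 ± 0.54, adjusted p = 0.00225) and shd (1.95 ± 0.41, 0.000315), cytochromes P450 of ecdysone synthesis, and Jheh1, a juvenile hormone epoxide hydrolase (0.39 ± 0.12, 0.00525). Levels of spo were low, from 0.313 ± 0.202 CPM (SD) at week 0 to 1.34 ± 1.12 CPM at week 3. Those of shd went from 0.976 ± 0.293 to 4.32 ± 5.83 CPM, so that the SD at week 3 exceeded the mean. Most genes of the ovary list also rose in older females, as given below. The part of ovary RNA in the rise of spo and shd was not tested. Of the 11 hormone genes, Jheh1 (0.71) and Jheh3 (0.57) were the 2 that rose in males. Jheh3 was also the single gene of the 13 lists called lower in all 3 mutants in females, at 15.2 ± 2.57 CPM in KO (-0.65, adjusted p = 0.00261), 15.6 ± 3.02 in W422X (-0.62, 0.0150) and 16 ± 3.22 in Y160C (-0.58, 0.0326), against 23.7 ± 4.45 CPM in the shared WG2 females (SD, n = 6).

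Of 23 fat body genes, 12 rose and 5 fell in older females, with a median of 0.20. The diacylglycerol acyltransferase gene mdy rose (0.63 ± 0.10, adjusted p = 8.17e-06), as did the nuclear receptor Hnf4 (0.28 ± 0.05, 3.69e-05), and the fatty acid synthase FASN1 fell (-0.48 ± 0.09, 4.96e-05). In older males 8 rose and 0 fell, with a median of 0.17, among them Lsd-1, a coat protein of lipid droplets, from 5.51 ± 3.37 to 13.6 ± 5.28 CPM (1.38 ± 0.16, adjusted p = 2.22e-08), and apolpp, from 669 ± 150 to 1108 ± 192 CPM (0.73 ± 0.11, 2.87e-06). How these genes moved with Yp1, Yp2 and Yp3 from library to library was not computed in males. Of the 21 genes of yolk uptake and the ovary, 19 rose and 1 fell in older females, with a median of 1.90, and 3 rose and 0 fell in males. Other lists moved in the same females. Of 14 genes of the male reproductive tract 10 rose and 0 fell (median 2.75), at low levels. These 14 genes summed to 3.92 to 8.66 CPM in young and 3.91 to 37.5 CPM in older females. Acp26Aa, 1 of them, went from a mean of 0.0397 to 0.561 CPM. The RNAs roX1 and roX2 rose as well (0.97 and 1.62). All 8 neuron genes fell (median -0.53), and of 7 photoreceptor genes 0 rose and 6 fell (median -1.06). The eggshell gene dec went from 0.826 ± 0.949 to 18.3 ± 33.5 CPM (3.38 ± 0.74, adjusted p = 0.000548), so that the SD exceeded the mean. The yolk protein receptor gene yl lay at 0.111 to 13.6 CPM in females. No gene of the fat body list and none of the transcription list was called in any of the 3 mutants against WG2 in females.

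Over the means of the 16 groups the yolk protein genes were closest to each other among 11225 genes with a mean of at least 1 CPM, with r = 0.998 for Yp1 and Yp2, 0.996 for Yp1 and Yp3 and 0.997 for Yp2 and Yp3. The other gene closest to each of them was pyd3 (r = 0.986 with Yp1, 0.985 with Yp2 and 0.985 with Yp3), followed by CG13008 (0.973) for Yp1 and Yp2 and by CG4020 (0.973) for Yp3. For fit it was RunxB (0.962), ahead of Yp3 (0.957). These r are over 16 group means that the sex difference dominates: pyd3 lay at 20.6 to 32.5 CPM in females and 10.7 to 17.9 CPM in males, and CG4020 at 3.53 to 7.94 and 0.553 to 2.02 CPM. Over the 8 female groups alone Yp2 and Yp3 had r = 0.957, and the other gene closest to both was CG8036 (0.943 and 0.963). Yp1 was there closest to wac (0.940) and Muc68D (0.931), with Yp3 at rank 26 (r = 0.810) and Yp2 at rank 63 (r = 0.751). The gene closest to fit was Hsp70Bb (0.97), a heat shock gene with near-identical copies whose counts are uncertain. All r over the 8 female groups use the KO week 3 mean, which holds replicates 1 and 3. Per kilobase, Yp2 stood in those libraries at 2.52 and 3.67 times Yp1, against 1.13 to 1.70 in the other 22 female libraries. Whether Yp1 stands apart from Yp2 and Yp3 in these r without those libraries was not tested. Library by library within groups, as given above, Yp1 and Yp2 moved together at r = 0.958.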

How the data were processed

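Total RNA of brains was sequenced after depletion of ribosomal RNA, with a Tecan Universal Plus library kit per the labels. The authors deposited unnormalised read counts per gene with a gene length. The submitters' processing notes name Subread. Aligner, genome build, annotation and strand setting are not given in the sources used here. Reads of overlapping genes cannot then be told apart. The BDGP6.54 annotation gave symbols to 17288 of 17490 identifiers, and positions.

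The analysis used edgeR 4.0.16 (R 4.3.3). filterByExpr (minimum count 10, total 15) kept 15807 genes and left out 1683. Library sizes were scaled with TMM factors, and the 48 libraries, of 8690199 to 55801160 counts, entered a joint quasi-likelihood fit of 16 group means, which leaves 32 degrees of freedom. Every adjusted p is edgeR's glmQLFTest with Benjamini-Hochberg adjustment over the 15807 genes, called under 0.05, unless another tool is named. Where an alternative tests another number of genes, the adjustment is over those. The SE is the log2 change divided by the square root of F. Deviations used log2 CPM with a prior count of 2. DESeq2 1.42.0, other scalings, a replicate block, a fat body covariate and left-out libraries were alternatives. The fits were tested on simulated data. Separate crosses are not stated, so p-values measure the spread between these samples.

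The 4 genes and the 13 lists (135 entries, 131 tested) were chosen with earlier results of these data known. From the lists, genes were named that had the smallest adjusted p among those called, at most 3 a list, for age in females and each mutant in females, and likewise for age in males, which was added after the values were seen. Genes of like pattern are the 3 with the highest r. Sequences were not used here.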

Additional observations from a re-analysis of the deposited data

Results flagged for a closer look

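Yp1 differed between the sexes in its change with age. The difference of the changes was -1.25 ± 0.43 on the log2 scale (adjusted p = 0.0415, edgeR), from -0.03 in females and 1.22 in males over 4 genotypes. With 1 library left out at a time the call was lost in 35 of 48 cases. No outlier test was run within the groups of 3.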

How the results depend on the processing

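No value turned its direction past a threshold: of 1524 values with 1 library left out, 1473 kept their side of the threshold, 45 lost the call and 6 gained it, and of 952 values under other alternatives 937 kept it, 7 lost it and 8 gained it. The sex difference in the change of Yp1 with age lost its call with RLE size factors (-1.16, adjusted p = 0.0573), total counts (-1.13, 0.0648), no filter on low counts (-1.25, 0.0507), the fat body covariate (-1.29, 0.0512), without KO female week 3 replicates 1 and 3 (-1.42, 0.118) and, in an alternative chosen after seeing the data, without the 9 libraries of TMM factor of at least 1.1 (-1.13, 0.214). The cause was not tested. With 1 library left out, it ranged from -1.46 to -0.99, that of Yp2 from -1.4 to -0.78, the male change of Yp2 from 0.84 to 1.5 and of Yp3 from 0.85 to 1.41, and the female change of fit from 0.61 to 1.2. In W422X males, Yp1 and Yp2 passed with total counts (2.37 and 2.33) and DESeq2 (2.24 and 2.21). In that contrast DESeq2 called 1731 of 15807 genes and edgeR 820.

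Replicate numbers did not pair the samples: in 7 of 120 pairs of groups was every same-numbered correlation over 0.1. With a replicate block the Yp1 sex difference in the change with age was -1.27 (adjusted p = 0.0466), and no call on the 4 genes changed.

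Counts of called genes moved more. Age in females called 9865 genes, against 2366 with the covariate and 2539 without the 9 libraries. Age in males called 2943, against 7657 and 7211. The sex difference in age called 3693, against 2307 (RLE), 1826 (total counts), 1950 (no filter), 11 (without the KO pair), 2156 (covariate) and 424 (without the 9). KO against WG2 in females called 122, against 19 (females alone), 10 (without the KO pair), 614 (without the 9) and 202 (DESeq2). W422X called 28, against 49 (covariate), 43 (without the 9) and 48 (DESeq2), and Y160C 28, against 18 (females alone). Total counts shifted the median of all genes by 0.25 for age in females and 0.17 for the sex difference in age, and RLE factors shifted the latter by 0.11. The called share that was higher was 63.8% for age in females with TMM, 73.4% with RLE and 88.5% with total counts, 61.8%, 56% and 76.3% in males, and 85.2%, 85.9% and 63.1% for KO.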
